A study of Mus musculus with 8 samples.

Results

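Expression of the TNF receptor superfamily was followed through 10 of its members in 4 populations of CD4 T cells sorted from peripheral lymph nodes (pLN) of immunized mice. The members were Tnfrsf1a, Tnfrsf1b, Tnfrsf4, Tnfrsf8, Tnfrsf9, Tnfrsf13b, Tnfrsf14, Tnfrsf18, Tnfrsf25 and Cd27, taken by gene name from the 29924 genes named on the array. All 10 were among the 15763 genes that were bright enough to be tested.

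Receptors of this family sit in the plasma membrane and are bound by ligands of the TNF superfamily on neighboring cells or in solution. Most members on T cells, among them OX40 (Tnfrsf4), GITR (Tnfrsf18), CD137 (Tnfrsf9), CD27 and CD30 (Tnfrsf8), recruit TRAF adaptors and act as costimulatory receptors after antigen contact, whereas TNFR1 (Tnfrsf1a) and DR3 (Tnfrsf25) carry a cytoplasmic death domain. Regulatory T cells are known for high OX40, GITR and TNFR2 (Tnfrsf1b), and help to B cells in the germinal center runs in part through ligands and receptors of the same 2 superfamilies.

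The 8 arrays came from B6.Cg-Foxp3<tm1Mal> mice, in which Foxp3+ cells carry EGFP, aged 8 to 14 weeks and of mixed gender. All mice had received KLH in alum subcutaneously, so that an unimmunized control was not part of the comparison. Cells were sorted from pLN pools of 8 to 15 mice on d12 or d25 p.i. as B220-CD4+ cells. Naïve CD4 T cells were GFP-PD1-GL7-, TFH cells GFP-PD1hiGL7+, Treg cells GFP+PD1-GL7- and TFR cells GFP+PD1hi with GL7 either present or absent. Each population was hybridized once per day, with 25 ng RNA per array, which gives 2 arrays per cell type. Peyer's patch cells were not analysed here.

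Levels are given in relative units (RU), the normalized brightness of a 60-base probe, with the lowest level set to 20 RU. A level of one gene's probe was never set against that of another gene. Differences are log2 differences ± SE from one limma fit over all 8 arrays with cell type and day as terms, and a difference was called at an adjusted p below 0.05 over the 15763 genes tested. The d12 and d25 arrays served as the replicates of a cell type. The day term takes out the shift between days that is common to all cell types. The spread left for the p-values is the change of cell type differences between d12 and d25, pooled over all cell types. The p-values cover no repeat of a cell type on a given day. In sorted bulk RNA, fewer cells of a kind and less RNA per cell cannot be told apart. All d12 samples shared 1 slide. The d25 naïve and TFH samples shared another and the d25 Treg and TFR samples one of their own, so that day and slide cannot be told apart and comparisons of Foxp3+ with Foxp3- cells stayed within a slide on d12 only.

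The sorted populations carried their labelled markers. Foxp3 stood at 48622 and 49260 RU in Treg and at 37266 and 37521 RU in TFR cells, against 66 to 358 RU in Foxp3- cells. The sum over 12 B cell markers was 47092 RU on the d25 TFH array and 11143 to 23074 RU on the other 7 arrays, with Pax5 at the lowest level on all 8. Summed proliferation markers reached 13427 to 19477 RU in TFH and 34297 to 48941 RU in TFR cells, against 2024 to 2727 RU in naïve and 5676 to 6332 RU in Treg cells. The part of either in the members' differences was not tested. Without the d25 TFH array the number of members called was 7 for TFH versus naïve, 7 for TFR versus Treg, 4 for Treg versus naïve and 6 for TFR versus TFH cells, beside 40.7%, 41.3%, 10.8% and 13% of the 16110 genes then tested.

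In TFH versus naïve CD4 T cells, 5 of 10 members rose and 2 fell, beside 20.9% and 25.7% of the 15763 genes tested. In TFR versus Treg cells, 4 members rose and 2 fell, beside 18.7% and 21% of all genes. One of the risen members, Tnfrsf8, passed the filter on dim probes through TFR cells alone, so that its call adds no independent support to that count. In Treg versus naïve cells, 4 members rose and 0 fell, beside 5.89% and 3.98% of all genes. TFR versus TFH cells differed by 4 members higher and 1 lower, beside 11.7% and 10.5%. The follicular change in Foxp3+ cells (TFR minus Treg) was larger than that in Foxp3- cells (TFH minus naïve) for 1 member and smaller for 1 member, beside 4.03% and 4.46% of all genes. Between d12 and d25, 0 members were called higher and 0 lower in limma, beside 0.019% and 0.0508% of all genes. Median log2 differences of the members were 0.340, 0.148, 0.359 and 0.467 in the 4 cell type comparisons in this order, against -0.0718, -0.0771, -0.0148 and -0.0243 over all genes.

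**Figure D1:**
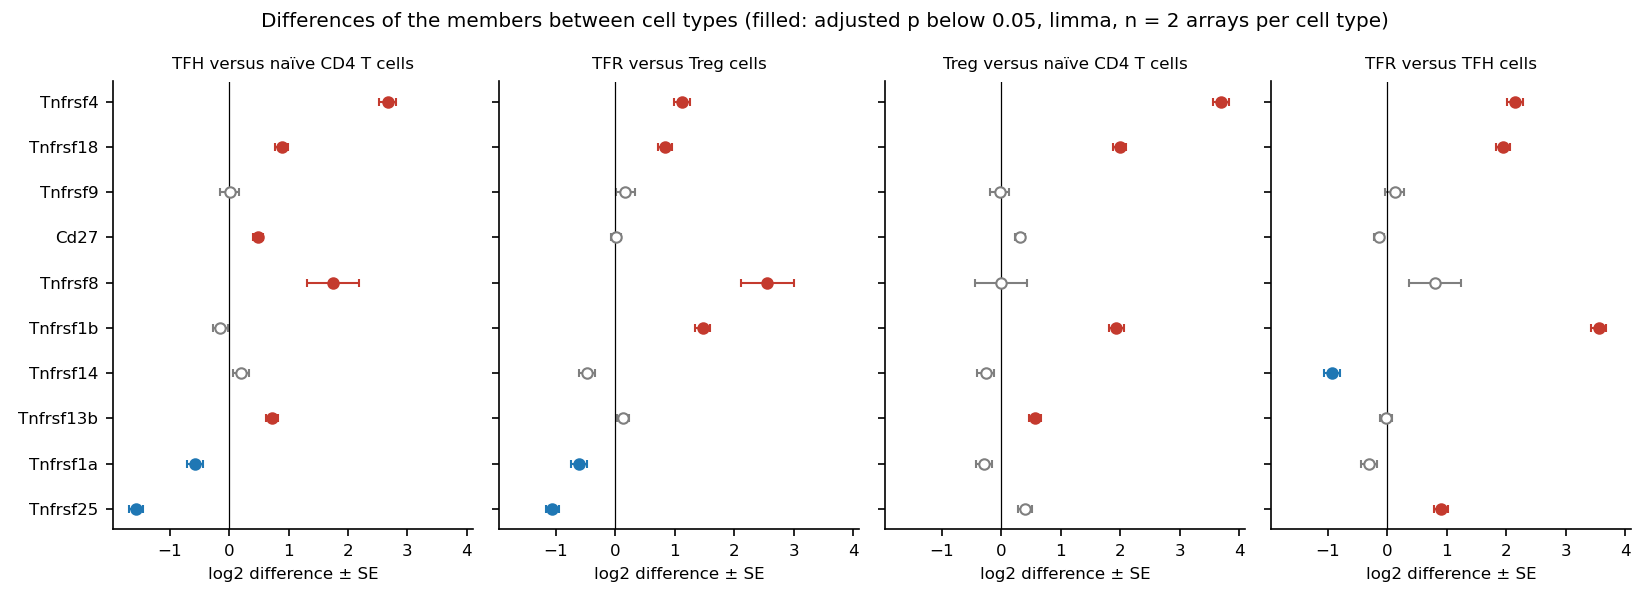
Log2 differences (± SE, limma) of the 10 members in 4 comparisons of cell types, with 2 arrays per cell type. Filled symbols were called (red higher, blue lower) and open grey symbols were not. The largest differences are those of Tnfrsf4 in Treg versus naïve cells (3.69) and of Tnfrsf1b in TFR versus TFH cells (3.55).

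Tnfrsf4 and Tnfrsf18, the genes of the costimulatory receptors OX40 and GITR, were called in all 4 comparisons of cell types. Tnfrsf4 measured 9327 and 8798 RU on d12 and d25 in naïve cells, 65931 and 50084 in TFH, 115219 and 118732 in Treg and 251083 and 258542 in TFR cells. The 4 populations did not overlap. Tnfrsf4 rose 6.34-fold in TFH over naïve cells (2.67 ± 0.14 log2, adjusted p = 0.000307, limma) and 12.9-fold in Treg over naïve cells (3.69 ± 0.14, adjusted p = 0.000882). TFR cells were 2.18-fold above Treg cells (1.12 ± 0.14, adjusted p = 0.00481) and 4.43-fold above TFH cells (2.15 ± 0.14, adjusted p = 0.00147). Neighbors in this order were tested except TFH against Treg cells. Within the d12 slide the Treg minus naïve difference was 3.63 and the TFR minus TFH difference 1.93 on the log2 scale.

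Tnfrsf18 followed the same order. Its levels were 16248 and 15804 RU in naïve, 32189 and 27232 in TFH, 62758 and 64707 in Treg and 110188 and 117632 in TFR cells, again without overlap. It rose 1.85-fold in TFH over naïve cells (0.89 ± 0.11 log2, adjusted p = 0.00368, limma) and 3.98-fold in Treg over naïve cells (1.99 ± 0.11, adjusted p = 0.00169). TFR cells exceeded Treg cells 1.79-fold (0.84 ± 0.11, adjusted p = 0.00603) and TFH cells 3.85-fold (1.94 ± 0.11, adjusted p = 0.00116). The call of TFR over Treg cells was lost without the d12 Treg array (adjusted p = 0.0514) and without the d25 TFR array (adjusted p = 0.0528). On d12 alone the Treg minus naïve difference was 1.95 and the TFR minus TFH difference 1.78.

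Tnfrsf4 and Tnfrsf18 are next to each other on chromosome 4, in the RefSeq gene order of assembly GRCm38.p6. Their probes lie at chr4:155390639-155390698 and chr4:155402941-155403000 of build NCBI37 (mm9), 12.3 kb apart. The 250 bases before each gene's start are shown because the pair rose together, from RefSeq at chr4:156013445-156013694 and chr4:156026072-156026321 of GRCm38.p6, plus strand, with matches to the NFAT core motif GGAAA on either strand in capitals.
Tnfrsf4: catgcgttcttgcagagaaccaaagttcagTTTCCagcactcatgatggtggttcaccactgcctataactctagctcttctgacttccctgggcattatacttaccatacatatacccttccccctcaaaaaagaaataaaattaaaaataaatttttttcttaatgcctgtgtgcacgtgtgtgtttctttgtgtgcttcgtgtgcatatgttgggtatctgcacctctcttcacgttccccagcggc
Tnfrsf18: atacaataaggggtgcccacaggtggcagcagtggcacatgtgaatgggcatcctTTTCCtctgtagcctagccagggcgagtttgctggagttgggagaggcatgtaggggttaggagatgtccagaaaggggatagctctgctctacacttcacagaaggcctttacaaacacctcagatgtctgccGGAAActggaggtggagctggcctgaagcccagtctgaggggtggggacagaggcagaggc
The motif occurred 1 time upstream of Tnfrsf4, beginning 220 bases before the start, and 2 times upstream of Tnfrsf18, beginning 195 and 61 bases before it, and 55.6% of the 32851 promoter windows of this length held it. The AP-1 motif TGANTCA, the NF-kappaB motif and the forkhead motif TGTTTNC, searched on both strands, had no match in either window and were held by 6.7%, 7.3% and 17.8% of all windows. GC content was 42.8% upstream of Tnfrsf4 and 56.0% upstream of Tnfrsf18. A match in these letters is a description and no measure of binding.

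**Figure D2:**
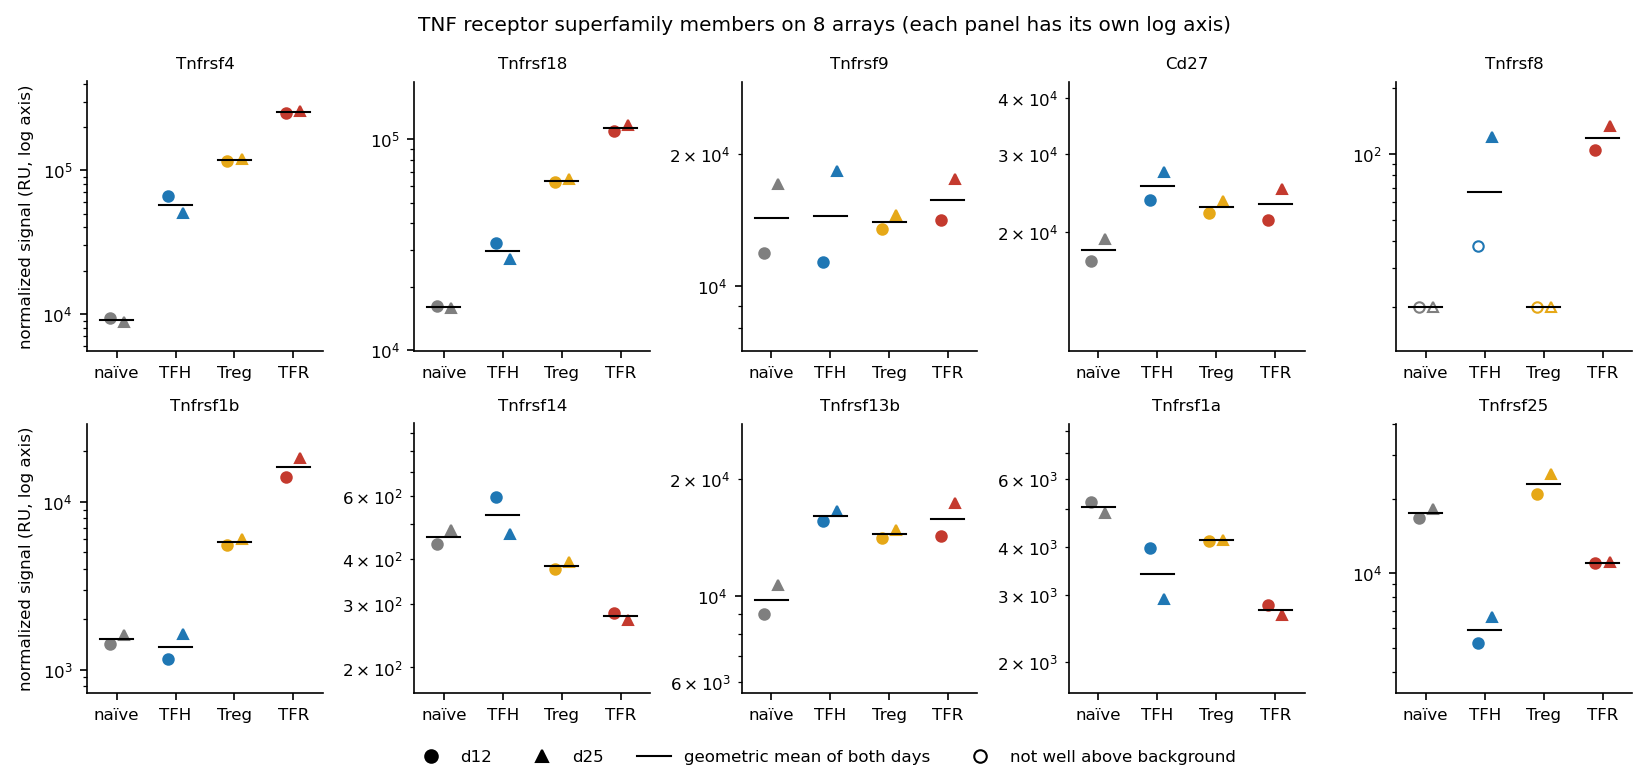
Levels of the 10 members in RU on each array, 1 panel per gene with its own log axis. Circles are d12, triangles d25, lines the geometric mean of the 2 arrays, and open symbols were not well above background. Tnfrsf4 and Tnfrsf18 climb from naïve over TFH and Treg to TFR cells, whereas Tnfrsf25 is lowest in TFH cells.

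Tnfrsf9, the gene of CD137, was read by 2 probes that gave different answers. The probe that was brighter on average over the arrays by rule stands for the gene, although the other was brighter in TFR cells. This brighter probe measured 11910 and 17101 RU in naïve, 11339 and 18320 in TFH, 13482 and 14525 in Treg and 14131 and 17513 in TFR cells. These ranges overlapped in all 4 populations, and the brighter probe was called in none of the comparisons (log2 differences -0.03 to 0.17 between cell types, lowest adjusted p = 0.441, limma). The other probe measured 1697 and 1721 RU in naïve, 5987 and 9380 in TFH, 8565 and 7521 in Treg and 41518 and 47217 in TFR cells. On this probe TFR cells stood above all other populations, naïve cells below, and TFH and Treg cells overlapped. It was higher in TFH than naïve cells (2.13 ± 0.21 log2, adjusted p = 0.00175), in TFR than Treg cells (2.46 ± 0.21, adjusted p = 0.00206), in Treg than naïve cells (2.23 ± 0.21, adjusted p = 0.0062) and in TFR than TFH cells (2.56 ± 0.21, adjusted p = 0.0027). With this probe in place of the brighter one, 8, 7, 5 and 6 members were called in TFH versus naïve, TFR versus Treg, Treg versus naïve and TFR versus TFH cells. With the brightest probes, 46.6%, 39.7%, 9.87% and 22.1% of all genes tested were called in the same order.

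Both Tnfrsf9 probes map to chr4 of NCBI37, the brighter at chr4:150319582-150319641 and the other at chr4:150319101-150319160. The last 30 bases of each by coordinate, at chr4:150319612-150319641 and chr4:150319131-150319160 on the plus strand, show how the probes differ, with a run of alternating G and T in capitals.
Tnfrsf9 brighter probe: taaaatcaGTGTGTGTGTGTGTGTGTGTGT
Tnfrsf9 other probe: taacatatttgtctttaccttttttaaatc
The run spans 22 bases of the brighter probe, and the longest such run in the other 15 member probes was 5 bases. On the whole array 45 of 39429 probes (0.114%) held a run of at least 22 bases. All 45 were well above background on all 8 arrays, as were 42.8% of all probes. The other 44 probes with the run were higher on d25 than on d12 in 44 cases, with a median log2 difference of 0.49, and the brighter Tnfrsf9 probe by 0.41, whereas the median over all 16859 probes well above background on all arrays was 0.0. The part of the run in the brighter probe's level was not tested.

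**Figure D3:**
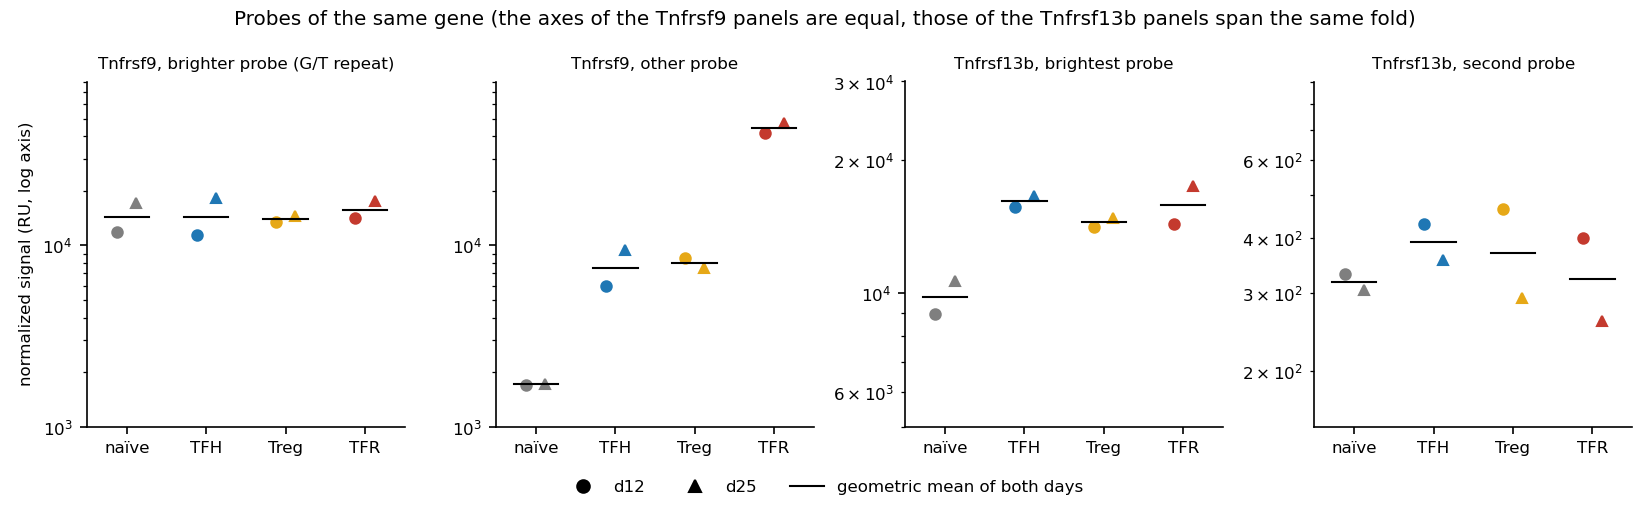
Levels in RU (log axis) on each array for probe pairs of one gene, with both panels of a gene spanning the same fold. Circles are d12 and triangles d25. The brighter Tnfrsf9 probe stays between 11339 and 18320 RU, whereas the other runs from 1697 to 47217 RU, and the second Tnfrsf13b probe stays between 260 and 464 RU.

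CD27 and CD30 are further costimulatory receptors of the family, CD27 being present on resting T cells and CD30 appearing after activation. Cd27 measured 17181 and 19243 RU in naïve, 23637 and 27274 in TFH, 22040 and 23485 in Treg and 21302 and 24951 in TFR cells, and the naïve samples lay below all others. It rose 1.40-fold in TFH over naïve cells (0.48 ± 0.08 log2, adjusted p = 0.00963, limma), a call that was lost without the d12 naïve array (adjusted p = 0.0602) or the d25 naïve array (adjusted p = 0.0611). The second Cd27 probe gave 0.34 ± 0.09 in the same comparison (adjusted p = 0.0346). Treg minus naïve cells gave 0.32 for Cd27 (adjusted p = 0.0833) and TFR minus Treg cells 0.02 (adjusted p = 0.880).

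Tnfrsf8 was close to background and entered the test through TFR cells alone. Its probe was well above background on 3 of 8 arrays, with 104 and 134 RU in TFR cells and 119 RU in the d25 TFH sample. The d12 TFH sample was at 38 RU, and all naïve and Treg samples were at the lowest level of 20 RU, where the probe was not well above background. Tnfrsf8 was at least 2.22-fold higher in TFR than in Treg cells, the bound being set against the dimmest signal still well above background on the Treg arrays. As TFR cells alone brought the gene into the test, this is a description and its call there is no independent test. TFH versus naïve cells were called (adjusted p = 0.0278, limma), but no fold is given since only 1 of the 2 TFH arrays measured the gene. That call was lost without either naïve or either TFR array (adjusted p = 0.0674 to 0.143). TFR and TFH cells were not called apart (adjusted p = 0.251). They were called without the d25 TFH array, where the 1 TFH sample left is not well above background, so that no difference is given.

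The receptors for TNF itself moved in different directions. Tnfrsf1b, the gene of TNFR2, measured 1426 and 1605 RU in naïve, 1154 and 1623 in TFH, 5558 and 6037 in Treg and 14077 and 18324 in TFR cells. Naïve and TFH samples overlapped, and Treg and TFR samples each stood apart. Tnfrsf1b rose 3.83-fold in Treg over naïve cells (1.94 ± 0.12 log2, adjusted p = 0.0023, limma), 2.77-fold in TFR over Treg cells (1.47 ± 0.12, adjusted p = 0.00197) and 11.7-fold in TFR over TFH cells (3.55 ± 0.12, adjusted p = 0.000519). TFH minus naïve cells gave -0.14 ± 0.12 (adjusted p = 0.382). On d12 alone the Treg minus naïve difference was 1.96 and the TFR minus TFH difference 3.61. The Tnfrsf1b probe at chr4:144802359-144802418 lies 80.2 kb from the Tnfrsf8 probe at chr4:144882582-144882641 (NCBI37), and the genes are neighbors.

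Tnfrsf1a, the gene of the death domain receptor TNFR1, fell in both follicular populations. It measured 5229 and 4890 RU in naïve, 3961 and 2918 in TFH, 4144 and 4168 in Treg and 2814 and 2653 in TFR cells, so that each follicular population lay below its non-follicular counterpart. The difference was 1.49-fold between TFH and naïve cells (-0.57 ± 0.13 log2, adjusted p = 0.0227, limma) and 1.52-fold between TFR and Treg cells (-0.60 ± 0.13, adjusted p = 0.0233). The first call was lost without either naïve or either TFR array (adjusted p = 0.0547 to 0.115) and the second without either Treg or either TFR array (adjusted p = 0.0720 to 0.138). A second Tnfrsf1a probe, at chr6:125311922-125311981 against chr6:125312376-125312435 for the brighter one (NCBI37), gave larger differences of -1.10 (adjusted p = 0.00157) and -1.03 (adjusted p = 0.00301). It was also lower in Treg than naïve cells (-0.62, adjusted p = 0.0293) and in TFR than TFH cells (-0.55, adjusted p = 0.0241), where the brighter probe gave -0.28 (adjusted p = 0.257) and -0.32 (adjusted p = 0.160).

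Tnfrsf25, the gene of DR3, a death domain receptor known as a costimulator of Treg cells, fell in follicular cells as well. It measured 16726 and 18178 RU in naïve, 5225 and 6647 in TFH, 20932 and 25120 in Treg and 11004 and 11059 in TFR cells, and the 4 populations did not overlap. TFH cells were 2.96-fold below naïve cells (-1.57 ± 0.11 log2, adjusted p = 0.000743, limma) and TFR cells 2.08-fold below Treg cells (-1.06 ± 0.11, adjusted p = 0.00349). TFR cells were 1.87-fold above TFH cells (0.90 ± 0.11, adjusted p = 0.00808), with 1.07 on d12 alone. This last call was lost without the d12 TFR array (0.79, adjusted p = 0.0668). Treg minus naïve cells gave 0.40 ± 0.11 (adjusted p = 0.103).

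Tnfrsf14 and Tnfrsf13b encode HVEM, which binds LIGHT, BTLA and CD160, and TACI, a receptor for BAFF and APRIL best known from B cells. Tnfrsf14 measured 442 and 481 RU in naïve, 596 and 470 in TFH, 376 and 392 in Treg and 284 and 271 in TFR cells. Naïve and TFH samples overlapped and the TFR samples were below all others. TFR cells were 1.91-fold below TFH cells (-0.93 ± 0.14 log2, adjusted p = 0.0126, limma), with -1.07 on d12 alone. That call was lost with slide as a block (adjusted p = 0.0608), without the d12 TFR array (adjusted p = 0.101) and without the d25 TFR array (adjusted p = 0.0937). TFR minus Treg cells gave -0.47 ± 0.14 (adjusted p = 0.0503), and the second Tnfrsf14 probe was called in this comparison (-0.45 ± 0.10, adjusted p = 0.0250).

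Tnfrsf13b measured 8977 and 10660 RU in naïve, 15656 and 16556 in TFH, 14113 and 14809 in Treg and 14309 and 17424 in TFR cells, with the naïve samples below all others and the TFR samples overlapping both TFH and Treg samples. It rose 1.65-fold in TFH over naïve cells (0.72 ± 0.10 log2, adjusted p = 0.00469, limma) and 1.48-fold in Treg over naïve cells (0.56 ± 0.10, adjusted p = 0.0323), with 0.65 on d12 alone. The Treg call was lost under 12 of 20 alternatives, among them slide as a block (adjusted p = 0.154) and the removal of any naïve, Treg or TFR array (adjusted p = 0.0786 to 0.186). The second Tnfrsf13b probe measured 332 and 305 RU in naïve, 430 and 357 in TFH, 464 and 293 in Treg and 400 and 260 in TFR cells. Its TFH samples lay above its naïve samples, its Treg and TFR samples overlapped both, and it was called in none of the comparisons, and the last of its 3 probes was well above background on 1 array only.

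Follicular cells were compared with their non-follicular counterparts on each side of the Foxp3 divide to ask whether the receptors change alike in TFH and TFR cells. Tnfrsf4 changed less on the Foxp3+ side, by -1.54 ± 0.20 on the log2 scale (1.12 against 2.67, adjusted p = 0.0172, limma), with -1.70 on d12 and -1.39 on d25. Tnfrsf1b changed more on the Foxp3+ side, by 1.62 ± 0.18 (1.47 against -0.14, adjusted p = 0.0123), with 1.65 on d12 and 1.59 on d25. Both calls were lost whenever 1 of the 6 naïve, Treg and TFR arrays was left out (adjusted p = 0.0516 to 0.0750 for Tnfrsf1b and 0.0744 to 0.101 for Tnfrsf4). For Tnfrsf18 the difference of changes was -0.05 ± 0.16 (adjusted p = 0.887) and for Tnfrsf25 it was 0.51 ± 0.16 (adjusted p = 0.136).

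**Figure D4:**
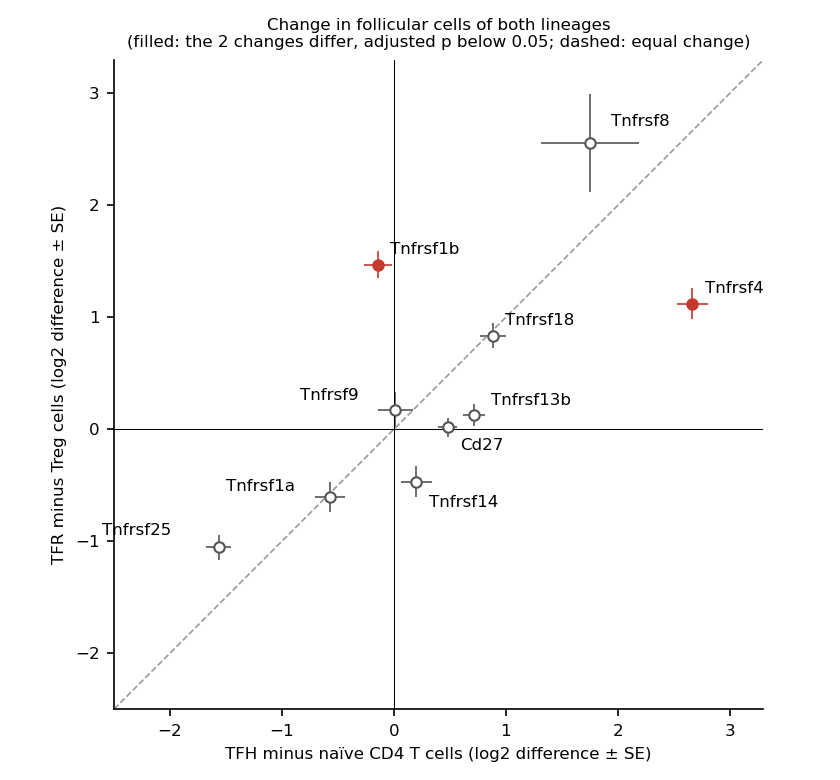
Change from naïve to TFH cells (x axis) against change from Treg to TFR cells (y axis) on the log2 scale for the 10 members, with 2 arrays per cell type. The dashed line marks equal change, and filled symbols were called in the test of the difference. Tnfrsf1b lies above the line (1.47 against -0.14) and Tnfrsf4 below it (1.12 against 2.67).

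Between d12 and d25 p.i. no member passed the test. The log2 differences between d25 and d12 ran from -0.15 to 0.50, and the lowest adjusted p was 0.113 for the brighter Tnfrsf9 probe (0.41 ± 0.11, limma). Of the 10 members 5 were higher on d25 in all 4 cell types and 0 were lower in all 4, beside 21.5% and 19.9% of the 15747 genes with a value on every array. Tnfrsf9 and Tnfrsf13b were among the 5 through the probe that stands for the gene only. The other Tnfrsf9 probe was lower on d25 in Treg cells (8565 RU on d12, 7521 on d25). The second Tnfrsf13b probe was lower on d25 in all 4 cell types (-0.42 log2).

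For each member the gene outside the 10 with the most similar pattern was taken as the one with the smallest root mean square distance of centered log2 levels over the 8 arrays. These were Dst for Tnfrsf4 (0.176), Csrp2 for Tnfrsf18 (0.200), Ccrl2 for Tnfrsf1b (0.155) and Rassf6 for Tnfrsf8 (0.124). Rassf6 was, like Tnfrsf8, at the lowest level of 20 RU on all naïve and Treg arrays. Dst was at 20 RU on both naïve arrays. Sh3bp5 was closest to Tnfrsf25 (0.107), Ssh2 to Tnfrsf14 (0.0824), Gm4710 to Tnfrsf1a (0.0587), Arfgef1 to Tnfrsf13b (0.0820), Nelfcd to the brighter Tnfrsf9 probe (0.0525) and H2-K1 to Cd27 (0.0257). Among the members themselves, the closest to Tnfrsf4 was Tnfrsf18 (0.797). The distances are not scaled to how much a gene varied, so they do not rank the matches of different members. The SD of log2 levels over the arrays was 1.79 for Tnfrsf4 and 0.198 for Cd27.

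The ligands of the members were read on the same arrays. Of 19 listed ligands and partners, 15 were tested. In TFH versus naïve cells 10 rose and 2 fell, beside 20.9% and 25.7% of all genes tested. In TFR versus Treg cells 8 rose and 2 fell, beside 18.7% and 21%. In Treg versus naïve cells 7 rose and 1 fell, beside 5.89% and 3.98%. Among the 7 was Tnfsf13b, at 20 RU in naïve and 46 RU in Treg cells. It was not well above background on any naïve or Treg array, so that this call rests on undetected signals. In TFR versus TFH cells 3 rose and 6 fell, beside 11.7% and 10.5%. Cd40lg, which entered the test through TFH cells alone, was the 1 that fell in Treg versus naïve cells and was among the 6. Its calls add no independent support. Cd70, the ligand of CD27, was at the lowest level of 20 RU in both naïve samples, at 174 and 384 RU in TFH, 30 and 48 in Treg and 1914 and 2583 in TFR cells. It was at least 41.9-fold higher in TFR than in Treg cells (adjusted p = 0.000569, limma) and rose by 3.11 ± 0.28 on the log2 scale in TFR over TFH cells (adjusted p = 0.00322). Tnfsf9, the ligand of CD137, measured 122 and 209 RU in naïve, 780 and 1022 in TFH, 279 and 300 in Treg and 1332 and 1402 in TFR cells. It rose in TFH over naïve cells by 2.48 (adjusted p = 0.000936) and in TFR over Treg cells by 2.24 (adjusted p = 0.00224).

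Tnfsf8, the CD30 ligand, ran the other way between the follicular populations. It measured 2295 and 3292 RU in TFH and 181 and 335 RU in TFR cells (-3.48 ± 0.24 log2, adjusted p = 0.00174, limma), with 487 and 666 RU in naïve and 577 and 528 RU in Treg cells. Partners of HVEM were called higher in follicular cells on both sides. Tnfsf14 (LIGHT) measured 573 and 710 RU in naïve, 10590 and 12929 in TFH, 1577 and 1325 in Treg and 8455 and 8015 in TFR cells, with log2 differences of 4.20 for TFH over naïve and 2.51 for TFR over Treg cells. Btla gave 1.61 and 0.71 in the same comparisons, and TFR minus TFH cells gave -0.85, while Cd160 gave 4.04 and 2.69. Tnf, which binds both TNF receptors, measured 705 and 665 RU in naïve, 3405 and 2573 in TFH, 1660 and 1381 in Treg and 1732 and 1471 in TFR cells. It rose by 2.11 in TFH and by 1.15 in Treg over naïve cells. The ligands of OX40 and GITR, Tnfsf4 and Tnfsf18, were not well above background on any array.

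**Figure D5:**
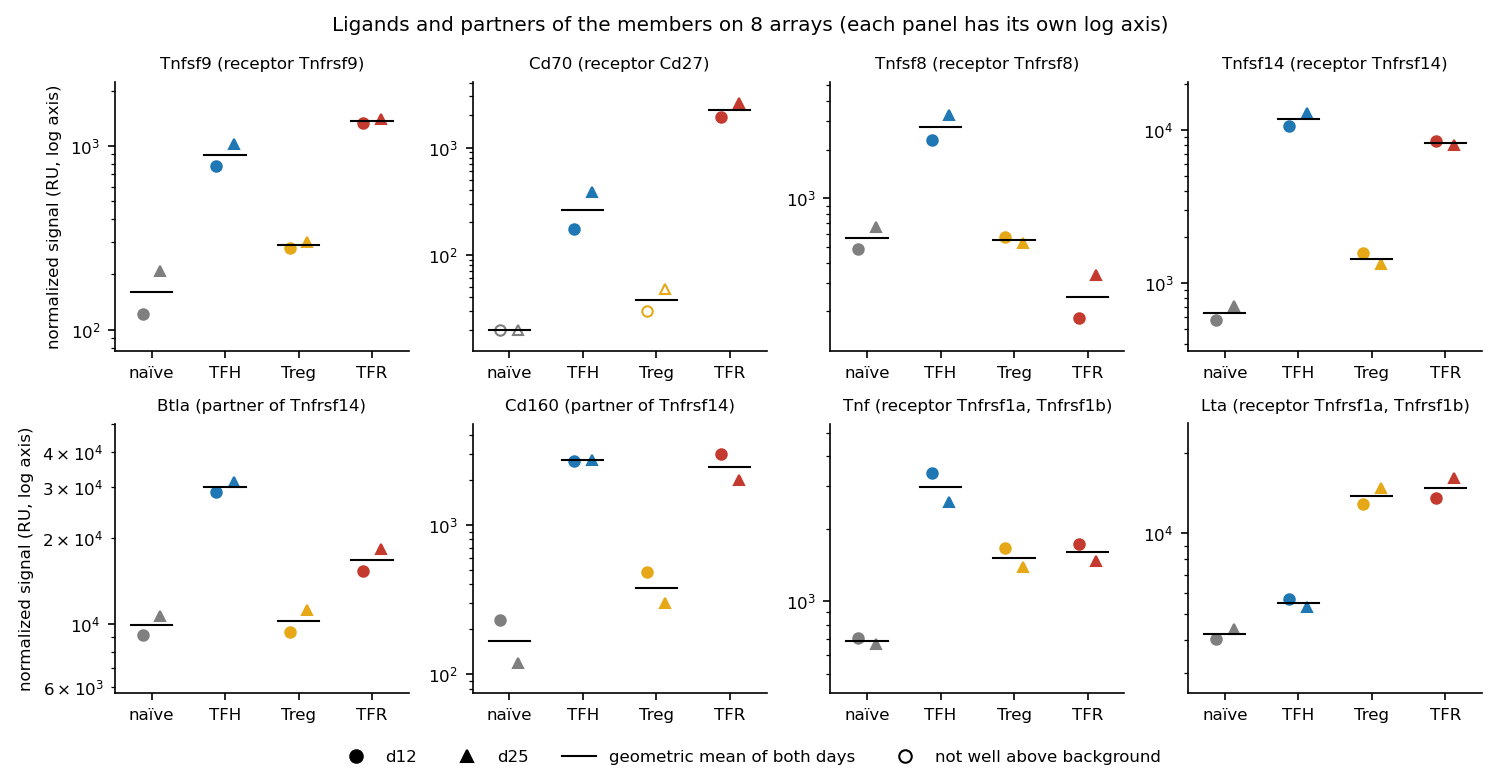
Levels in RU of ligands and partners of the members on each array, 1 panel per gene with its own log axis. Circles are d12, triangles d25 and lines the geometric mean of the 2 arrays. Cd70 is highest in TFR cells (1914 and 2583 RU), and Tnfsf8 is highest in TFH cells (2295 and 3292 RU).

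Tnfsf13b, the gene of BAFF and so a ligand of TACI, was at least 13.3-fold higher in TFH than in naïve cells (adjusted p = 8.13e-05, limma) and at least 9.38-fold higher in TFR than in Treg cells (adjusted p = 0.000373). Tnfsf11, the gene of RANKL, rose by 4.49 ± 0.13 on the log2 scale in TFH over naïve cells (adjusted p = 0.000115). Cd40lg entered the test through TFH cells alone, and no difference is given for it.

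Of 18 further receptors of the superfamily, 12 were tested. In TFH versus naïve cells 4 rose and 2 fell, beside 20.9% and 25.7% of all genes tested. In TFR versus Treg cells 2 rose and 2 fell, beside 18.7% and 21%. In Treg versus naïve cells 1 rose and 0 fell, beside 5.89% and 3.98%. In TFR versus TFH cells 3 rose and 4 fell, beside 11.7% and 10.5%. Tnfrsf21 is counted among those higher in TFH cells in the first and last of these comparisons, where its calls add no independent support. Cd40, best known from B cells and dendritic cells, was at 309 and 358 RU in TFR cells and at least 5.88-fold higher there than in Treg cells (adjusted p = 0.00186, limma). Fas, the death receptor, rose by 1.05 on the log2 scale in TFH and by 0.66 in Treg over naïve cells (adjusted p = 0.00139 and 0.0196), and was lower in TFR than TFH cells, with a difference of -0.69 (adjusted p = 0.0107). Relt was lower in TFH than naïve cells, with a difference of -2.16 ± 0.11 (adjusted p = 0.00033), and Tnfrsf21, which entered the test through TFH cells alone, was at least 2.41-fold higher in TFH than in TFR cells as a description.

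Of 12 TRAF adaptors and related ubiquitin ligases downstream of the members, 2 rose and 5 fell in TFH versus naïve cells. The shares over all genes tested were 20.9% and 25.7%. In TFR versus Treg cells 1 rose and 6 fell, beside 18.7% and 21%. In Treg versus naïve cells 2 rose and 0 fell, beside 5.89% and 3.98%, and in TFR versus TFH cells 2 rose and 0 fell, beside 11.7% and 10.5%. Traf1, which binds TNFR2, CD30 and CD137 together with TRAF2, was among them, with log2 differences of 0.82 for Treg over naïve cells (adjusted p = 0.0115, limma) and 1.02 for TFR over TFH cells (adjusted p = 0.00387). Map3k14, the NIK kinase, and Birc3, a ubiquitin ligase bound to TRAF2, had differences of -1.28 and -1.24 in TFR versus Treg cells (adjusted p = 0.00472 and 0.00842). Among 13 genes of death domain signaling and its brakes, 6 rose and 3 fell in both TFH versus naïve and TFR versus Treg cells. The shares over all genes tested were 20.9% and 25.7% in the first comparison and 18.7% and 21% in the second. Tnfaip8 rose by 2.51 (adjusted p = 0.000289, limma) and Tnfaip3, the brake A20, by 1.02 (adjusted p = 0.00334) in TFH over naïve cells.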

How the data were processed

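Gene expression was measured on 8 Agilent 1-color arrays with 25 ng RNA each. Scanner files were written by Agilent Feature Extraction 10.7.3.1, per the submitters' processing notes. The deposited scanner files hold the processed signal as linear intensity, from which the authors' processing was repeated: spots were excluded by flags, by distance beyond 1.42 interquartile ranges or by a pixel coefficient of variation above 0.5, the 4 spots of each of 39429 probes averaged, arrays quantile normalized, the 75th percentile set to 1500 and values below 20 set to 20. Between 86.45% and 89.18% of 157716 spots per array were kept, and 46.3% to 50.39% of probes were well above background. The number of arrays limits the precision. The authors' deposited value table holds normalized values, which were taken as log2 for comparison and correlated with the repeat at r = 0.9994, with the brightest 1% of probes offset by 0.512. Table columns of samples outside the 8 arrays numbered 0.

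Of several probes of a gene, the one brightest on average over the arrays was used. All 10 members are named, and of each pathway list the most changed called genes and known partners. The members and lists were chosen with earlier results of these data known. Genes entered the test if the scanner software marked the probe as well above background in the d12 and the d25 sample of 1 cell type or more. Log2 levels were fitted with limma 3.58.1 in R 4.3.3 (lmFit, eBayes, cell type plus day, residual df 3, prior df 1.9) with Benjamini-Hochberg adjustment. The procedure was also run on simulated data, whose outcome is not reported here and lends the calls no support. Folds against a cell type in which neither sample reached that mark are bounds. Alternatives changed background correction, normalization, spot exclusion, floor, filter, probe, day term, slide, variance prior, value table and threshold, or left out 1 array. The authors' variance analysis was not repeated, as each cell type was hybridized once per day. Probe positions are those of the scanner files, and promoters and gene order come from RefSeq. Protein sequences were not used here.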

Additional observations from a re-analysis of the deposited data

Results flagged for a closer look

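The change from non-follicular to follicular cells differed between the Foxp3+ and Foxp3- sides for 2 members, by limma's test of the difference of changes. For Tnfrsf1b it was 1.62 larger on the log2 scale from Treg to TFR than from naïve to TFH cells (adjusted p = 0.0123). Over the alternatives it stayed between 1.48 and 1.75, with an adjusted p of up to 0.0750. For Tnfrsf4 the difference of changes was -1.54 (adjusted p = 0.0172), between -1.74 and -1.34 over the alternatives, with an adjusted p of up to 0.101. Neither difference turned direction when any 1 array was left out, although both lost their call whenever a naïve, Treg or TFR array was the one left out.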

How the results depend on the processing

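Of the 24 called differences of the members, 13 stayed called under all 19 processing alternatives and removals of 1 array, 11 were lost under at least 1, and 0 turned direction. The number of members called in TFH versus naïve cells was 7, between 4 and 7 with 1 array left out, and 3 with a log2 difference of at least 1 required. In TFR versus Treg cells it was 6, between 3 and 7 with 1 array left out, and in Treg versus naïve cells 4, between 3 and 4. In TFR versus TFH cells it was 5, between 3 and 6 with 1 array left out, and 3 with the log2 requirement. For the difference of changes it was 2, between 0 and 3 with 1 array left out (0 whenever it was a naïve, Treg or TFR array), 0 without the filter on dim probes and 4 with an intensity trend in eBayes. Between the days it was 0 in each alternative run. Among all genes, the log2 requirement left 3274 of 15763 called in TFH versus naïve and 1694 in TFR versus TFH cells. For the difference of changes, 421 of 29924 genes were called without the filter and 1821 of 15763 with the trend. In each comparison other than that of the days, the lowest number of all genes called, given below, came from leaving out 1 array. The 19 alternatives do not include the exchange of a probe for another of the same gene. Of the 13 differences kept, Tnfrsf13b in TFH versus naïve cells was not called with its second probe (0.30, adjusted p = 0.197, limma). Nor was it with its last probe (0.66, adjusted p = 0.222). Tnfrsf9 in Treg versus naïve cells turned from -0.03 to 1.10 with the mean of its probes and to 2.23 with the other probe, and the cause was not tested. The number of all genes called ran over these alternatives from 4335 to 7827 in TFH versus naïve (7345 as reported), 2504 to 6818 in TFR versus Treg (6256), 424 to 2083 in Treg versus naïve (1556), 981 to 4251 in TFR versus TFH cells (3488), 297 to 1821 for the difference of changes (1338) and 0 to 1121 between the days (11). Signal over background limits Tnfrsf8, which was measured on 3 of 8 arrays.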
